A study of Mus musculus with 6 samples.

Results

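MHC class I molecules present peptides from inside the cell to CD8 T cells, and the genes described here build and load them. All 10 listed genes (H2-K1, H2-D1, B2m, Tap1, Tap2, Tapbp, Psmb8, Psmb9, Psmb10 and Nlrc5) were rows of the deposited count table, among 14484 genes in all, and all 10 passed the filter on low counts. They were chosen by symbol. In a class I molecule, a heavy chain (H2-K1 or H2-D1 in mice) pairs with beta-2-microglobulin (B2m). The immunoproteasome cuts cytosolic proteins into peptides, the TAP transporter carries these into the endoplasmic reticulum, and tapasin holds the empty class I molecule beside the transporter. Interferon gamma raises most of these genes, and the nuclear protein NLRC5 drives transcription of many of them. In skin, keratinocytes, fibroblasts, vessels and leukocytes all carry class I molecules. Hair follicles in their growth phase are known for low class I on the follicle epithelium.

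RNA was sequenced from skin of mice on a C57BL/6-129J background, 3 libraries in each of 2 groups. The ATR WT group carried ATR +/+ with Braf CA/+ and Cre, and the ATR mD/mD group carried ATR fl/fl, with a part of the kinase domain deleted, also with Braf CA/+ and Cre. Both groups thus shared the Braf CA allele and Cre. The labels name neither the promoter that drives Cre nor the age of the animals, and the design text calls the samples nevi. They do not say that libraries came from separate animals, so p-values measure the spread between these libraries.

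In the text and figures the libraries carry the names of their labels, shortened in the text to WT1, WT2 and WT3 and to mD1, mD2 and mD3. Gene counts summed to between 34723600 and 46847751 per library. Atr itself, the targeted gene, had 640 to 1182 counts in the ATR WT libraries and 728 to 874 in those of ATR mD/mD, and a count over the whole gene does not check a deletion of part of it. Skin markers were present: the 10 epidermal keratinocyte markers summed to 14921 to 25360 CPM (a gene's counts as a share of its library, scaled by the TMM method). The 8 melanocyte markers summed to 134 to 869 CPM. The libraries stood apart in hair genes rather than by genotype. The hair gene level, the mean log2 CPM of 27 hair shaft and inner root sheath genes, was -0.51 in mD1, 1.75 in WT1 and 2.08 in mD2. It was 7.17 in WT2, 7.43 in mD3 and 7.47 in WT3. The Y-linked genes split the libraries in another way, with WT1, mD2 and mD3 at 4.75 to 5.17 log2 CPM and the others at -3.61 or below.

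The members lie on 3 chromosomes of the mouse genome (mm10, GENCODE M21 positions). Within the major histocompatibility complex on chromosome 17 lie Tapbp (33915899 to 33929292, plus strand), H2-K1 (33996017 to 34000347, minus), Psmb9 (34181987 to 34187764, minus) and Tap1 (34187553 to 34197225, plus). Psmb8 (34197721 to 34201454, plus), Tap2 (34203527 to 34216321, plus) and H2-D1 (35262730 to 35267499, plus) follow on the same chromosome. B2m is on chromosome 2 (122147686 to 122153083, plus). Psmb10 (105935735 to 105938444, minus) and Nlrc5 (94434356 to 94527272, plus) are on chromosome 8. Psmb9 and Tap1 face away from each other, and their RefSeq starts are 226 bases apart.

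The stretches before the starts of 4 members are shown because these members include both heavy chains, the light chain and the shared stretch between Tap1 and Psmb9, whose RNA levels are set side by side below. They are the 250 bases before the RefSeq start (GRCm38.p6, the assembly of mm10), 5′ to 3′ on the strand of the gene, and 8 of the 10 members had such a window. H2-K1 had 2 RefSeq starts, and the window of the upstream one is shown. Capitals mark every match, on either strand, to CCAAT (the Y box, ATTGG on the other strand), TGACG (the core of the X2 box), GAAA-any 2 bases-GAAA (the core of the interferon-stimulated response element) and GGG-any 5 bases-CC (an NF-kB pattern). Matches to the last pattern overlapped each other on the 2 strands, and no match to 1 pattern overlapped another pattern in these 4 windows.
B2m, chr2:122147437-122147686, plus strand: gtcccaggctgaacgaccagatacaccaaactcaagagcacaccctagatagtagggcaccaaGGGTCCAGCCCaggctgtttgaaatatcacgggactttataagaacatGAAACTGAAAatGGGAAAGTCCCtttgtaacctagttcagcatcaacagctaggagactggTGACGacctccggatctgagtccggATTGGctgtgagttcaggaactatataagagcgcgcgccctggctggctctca
H2-K1, chr17:34000348-34000597, minus strand: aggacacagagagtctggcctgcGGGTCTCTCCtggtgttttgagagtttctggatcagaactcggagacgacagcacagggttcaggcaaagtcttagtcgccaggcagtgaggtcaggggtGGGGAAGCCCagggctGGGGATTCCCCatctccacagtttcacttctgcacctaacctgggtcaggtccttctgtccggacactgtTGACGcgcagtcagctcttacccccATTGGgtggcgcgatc
H2-D1, chr17:35262844-35263093, plus strand: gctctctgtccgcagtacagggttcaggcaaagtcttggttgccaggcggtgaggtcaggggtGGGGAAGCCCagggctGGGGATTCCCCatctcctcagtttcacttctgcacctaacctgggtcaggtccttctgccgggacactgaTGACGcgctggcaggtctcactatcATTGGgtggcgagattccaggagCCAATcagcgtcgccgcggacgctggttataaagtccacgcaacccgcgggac
Tap1, chr17:34187306-34187555, plus strand: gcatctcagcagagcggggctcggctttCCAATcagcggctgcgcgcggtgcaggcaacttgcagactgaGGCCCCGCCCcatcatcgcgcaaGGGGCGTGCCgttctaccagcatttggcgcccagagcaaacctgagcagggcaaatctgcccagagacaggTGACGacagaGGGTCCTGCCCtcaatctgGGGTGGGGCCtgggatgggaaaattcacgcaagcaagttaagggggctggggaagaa

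In B2m, H2-K1 and H2-D1, TGACG was followed by ATTGG after exactly 20 bases. The pair began at -78 in B2m, -41 in H2-K1 and -101 in H2-D1, counted from the RefSeq start, which for H2-D1 lies inside the gene as GENCODE draws it. Of 32851 such windows in the RefSeq table, 30 (0.0913%) held that spaced pair on either strand. These belonged to 26 genes, and H2-M3, a further class I heavy chain gene, was among them. Of the 32 H2 genes with a window, 3 held the pair: H2-K1, H2-D1 and H2-M3. This spacing was noticed after the sequences were read. Among the 8 members with a window, CCAAT was present in 6, TGACG in 5, the NF-kB pattern in 5 and the interferon pattern in B2m alone, at -139. In all windows the shares were 33.8%, 17.8%, 45.8% and 2.98%. The Psmb8 and Psmb10 windows held none of the 4 patterns. The Psmb8 window (34197945 to 34198194) lies wholly inside the gene as GENCODE draws it, as do those of Tapbp, Psmb9 and H2-D1. A match is a run of letters and not a shown binding site. Only these exact patterns were searched. A window without the interferon pattern, such as those of H2-K1 and H2-D1, may hold that element in another form.

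Per exon length, B2m was the most abundant member in every library, and Nlrc5 the least. Levels were 1907 ± 275 RPKM (CPM per kilobase of exon; mean ± SD over all 6 libraries) for B2m, 477 ± 121 for H2-K1 and 318 ± 79.0 for H2-D1. The ranges of H2-K1 (277 to 597 RPKM) and H2-D1 (184 to 412) overlapped, and both stayed below the lowest B2m value of 1568. Tapbp, which encodes tapasin, followed at 60.4 ± 4.98 RPKM. Tap2 (37.7 ± 5.28), Psmb8 (36.4 ± 8.40), Psmb10 (32.6 ± 5.96) and Tap1 (27.9 ± 5.16) overlapped in range and have no clear order. Psmb9 was at 17.8 ± 5.22 RPKM, and its highest library (24.8) reached into the ranges of Psmb10 and Tap1. Nlrc5 was at 7.98 ± 0.906, with its highest library (9.09) below the lowest Psmb9 value (12.01). Lengths were all annotated exon bases of a gene, which include rarely used exons, so these levels are approximate.

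No member passed the test between genotypes. The groups overlapped in all 10 members, against 4.84% of all genes in which they did not overlap. None of the 10 passed an adjusted p under 0.05 (edgeR quasi-likelihood test), and none had an unadjusted p under 0.05. Over all genes, 0.0483% passed, all of them lower in ATR mD/mD, and 1.66% had an unadjusted p under 0.05. The count of members past the threshold was also 0 with DESeq2, limma-voom and edgeR's exact test. In the authors' deposited table the adjusted p of every member was 1. Of the members, 4 had negative and 6 positive log2 fold changes, and 48% of all genes had negative ones. Their median was 0.03, beside 0.007 over all genes, and their median absolute log2 fold change was 0.11, beside 0.10.

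The heavy chains spanned the widest ranges of the set, with Psmb9. H2-K1 was at 1755, 1238 and 1631 CPM in WT1, WT2 and WT3 and at 1675, 814 and 1305 CPM in mD1, mD2 and mD3. H2-D1 was at 1063, 767 and 475 CPM in WT1 to WT3 and at 965, 876 and 767 CPM in mD1 to mD3. mD2 was the low library for H2-K1 and WT3 the low library for H2-D1, while the other libraries overlapped between groups. The log2 fold change of ATR mD/mD against ATR WT was -0.29 for H2-K1 (SE 0.307, 95% interval -1.02 to 0.45, adjusted p = 0.9999, edgeR). For H2-D1 it was 0.18 (SE 0.306, 95% interval -0.56 to 0.91, adjusted p = 0.9999, edgeR). It was -0.088 without WT3, and that of H2-K1 was -0.049 without mD2 and -0.54 without mD1. As folds, the intervals run from 0.492 to 1.37 for H2-K1 and from 0.681 to 1.88 for H2-D1, so these 6 libraries leave room for differences of that size.

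The light chain B2m was at 1992, 1508 and 1671 CPM in WT1 to WT3 and at 1820, 1499 and 1348 CPM in mD1 to mD3. Its log2 fold change was -0.15 (SE 0.215, 95% interval -0.66 to 0.37, edgeR), and its values overlapped between the groups. It was -0.017 without WT1 and -0.27 without mD1.

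The peptide transporter and tapasin spanned narrower ranges. Tap1, a subunit of the transporter, was at 176, 130.4 and 133 CPM in WT1 to WT3 and at 199, 142 and 135 CPM in mD1 to mD3. Tap2, its partner subunit, was at 165, 127 and 135 CPM against 169, 122 and 136. Tapbp was at 252, 205 and 222 CPM against 223, 204 and 209. In Tap1 and Tap2 the highest 2 libraries were WT1 and mD1, 1 of each genotype, and the remaining 4 lay close together. The log2 fold changes were 0.12 (SE 0.209) for Tap1, 0.002 (SE 0.179) for Tap2 and -0.095 (SE 0.136) for Tapbp. Highest over lowest library was 1.52-fold, 1.39-fold and 1.24-fold. The median of that ratio over all genes was 1.60.

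The catalytic subunits of the immunoproteasome spanned a wider range over libraries than the transporter, and both groups covered much of it. Psmb8 was at 166, 105 and 90.9 CPM in WT1 to WT3 and at 148, 115 and 113 CPM in mD1 to mD3. Psmb9 was at 90.9, 52.3 and 44.0 CPM against 86.4, 59.1 and 57.7. Psmb10 was at 69.1, 56.7 and 44.8 CPM against 60.4, 42.4 and 59.7. WT1 was the highest library for all 3, and the lowest was WT3 for Psmb8 and Psmb9 and mD2 for Psmb10. The log2 fold changes were 0.05 (SE 0.256), 0.12 (SE 0.309) and -0.071 (SE 0.212). Highest over lowest library was 1.83-fold, 2.07-fold and 1.63-fold.

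Nlrc5, the transactivator, was at 66.3, 57.5 and 75.1 CPM in WT1 to WT3 and at 77.2, 69.5 and 61.1 CPM in mD1 to mD3. Its log2 fold change was 0.06 (SE 0.150, 95% interval -0.30 to 0.42, edgeR). It did not share the order of the other members, since WT3, low for Psmb8, Psmb9 and H2-D1, held its second highest value.

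**Figure D1:**
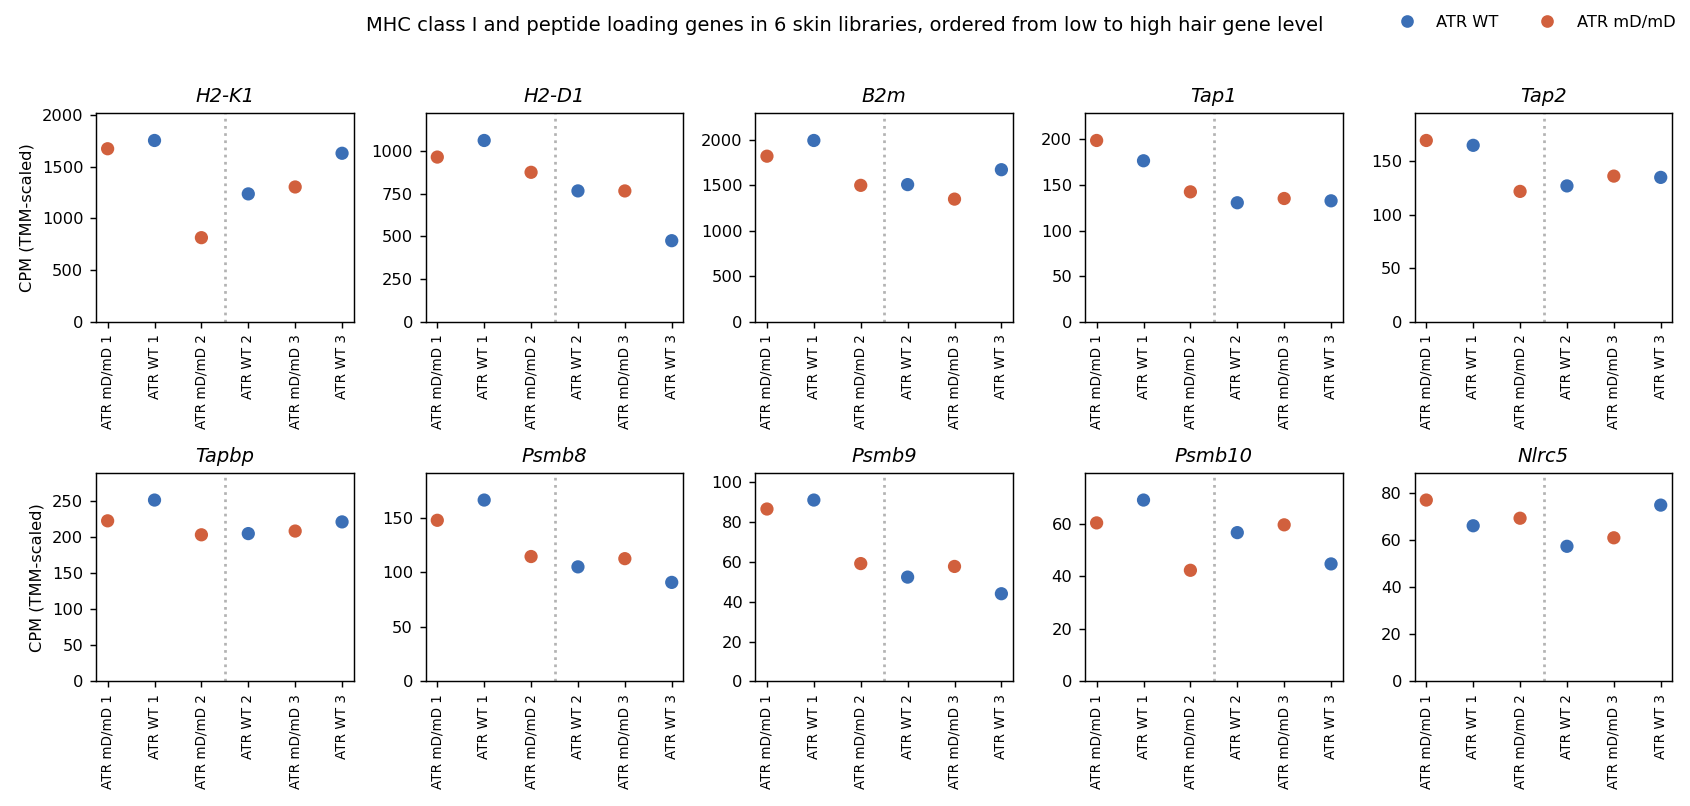
CPM (linear axis from 0) of each of the 10 members in each of the 6 libraries, 1 point per library, ordered from low to high hair gene level, with a dotted line at the widest gap in that level. ATR WT and ATR mD/mD points overlap in every panel, H2-K1 drops to 814 CPM in mD2, and H2-D1 drops to 475 CPM in WT3.

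What the members shared was a pair of high libraries, 1 of each genotype. WT1 was the highest library for 7 members and mD1 for the other 3 (Tap1, Tap2 and Nlrc5), and together they held the top 2 places for 9 of 10. For Tapbp this rests on 223 CPM in mD1 against 222 CPM in WT3. The share of all genes with such an order was not counted. WT1 had the lowest TMM factor (0.923, beside 0.98 to 1.04 in the others), and a lower factor raises the CPM. WT1 was below its 6-library mean for Nlrc5 only. The median member was 0.32 above its own mean log2 CPM in WT1 and 0.27 above it in mD1. In the other 4 libraries the median member was between 0.080 and 0.144 below. The lowest library differed by gene: mD2 for 4 members, WT3 for 3, WT2 for 2 and mD3 for B2m.

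Both high libraries had a low hair gene level. The third library with a low level, mD2, was the lowest for 4 members (H2-K1, Tap2, Tapbp and Psmb10). For H2-D1, Tap1, Psmb8 and Psmb9 it was the third highest, at 876, 142, 115 and 59.1 CPM. The libraries of high hair gene level reached at most 767, 135, 113 and 57.7 CPM for these. In a model with genotype and the hair gene level, all 10 members had a negative slope, beside 47.8% of all genes. The slope is the log2 change for a rise of 5 log2 CPM in the hair gene level, which is close to the gap between 2.08 and 7.17. It was -0.52 for Psmb9 (SE 0.147, adjusted p = 0.0801, edgeR), -0.34 for Tap1 (SE 0.108, adjusted p = 0.106, edgeR) and -0.40 for Psmb8 (SE 0.135, adjusted p = 0.119, edgeR). H2-D1 had -0.40 (SE 0.194), B2m -0.27 (SE 0.140), Tap2 -0.21 (SE 0.119) and H2-K1 -0.17 (SE 0.232). Psmb10, Nlrc5 and Tapbp had -0.12 (SE 0.164), -0.12 (SE 0.117) and -0.11 (SE 0.105).

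None of the 10 slopes passed an adjusted p under 0.05, while 9.22% of all genes passed, 3.86% with a negative slope and 5.36% with a positive one. Psmb9, Tap1 and Psmb8 had an unadjusted p under 0.05, beside 12.5% of all genes with a negative slope at that level. DESeq2 called Psmb9 (adjusted p = 0.0251) and Tap1 (adjusted p = 0.0345), in a fit that called 2583 of 14484 genes, with 8.96% of all genes called at a negative slope. Without mD3, edgeR called Psmb9 (adjusted p = 0.0447), where 0.117% of all genes were called at a negative slope. The members' median slope was -0.24, beside 0.02 over all genes, and it was -0.47 without mD3 and -0.19 without mD1. Without WT1, no member had an unadjusted p under 0.05, and the slope was -0.34 for Psmb9 (adjusted p = 0.227, edgeR), -0.23 for Psmb8 and -0.23 for H2-D1. Without mD1 or WT2, 1 member had an unadjusted p under 0.05. It was 3 members without WT3 or mD2, 6 without mD3 and 4 with no genotype term. Of all 14484 genes, 2822 (without WT2) to 3673 (without WT1) had such a p with 1 library left out. With no genotype term it was 3737, and these counts hold slopes of either sign. The 3 libraries on each side of the gap form separate clusters of the hair gene level, so no correlation with it is given.

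**Figure D2:**
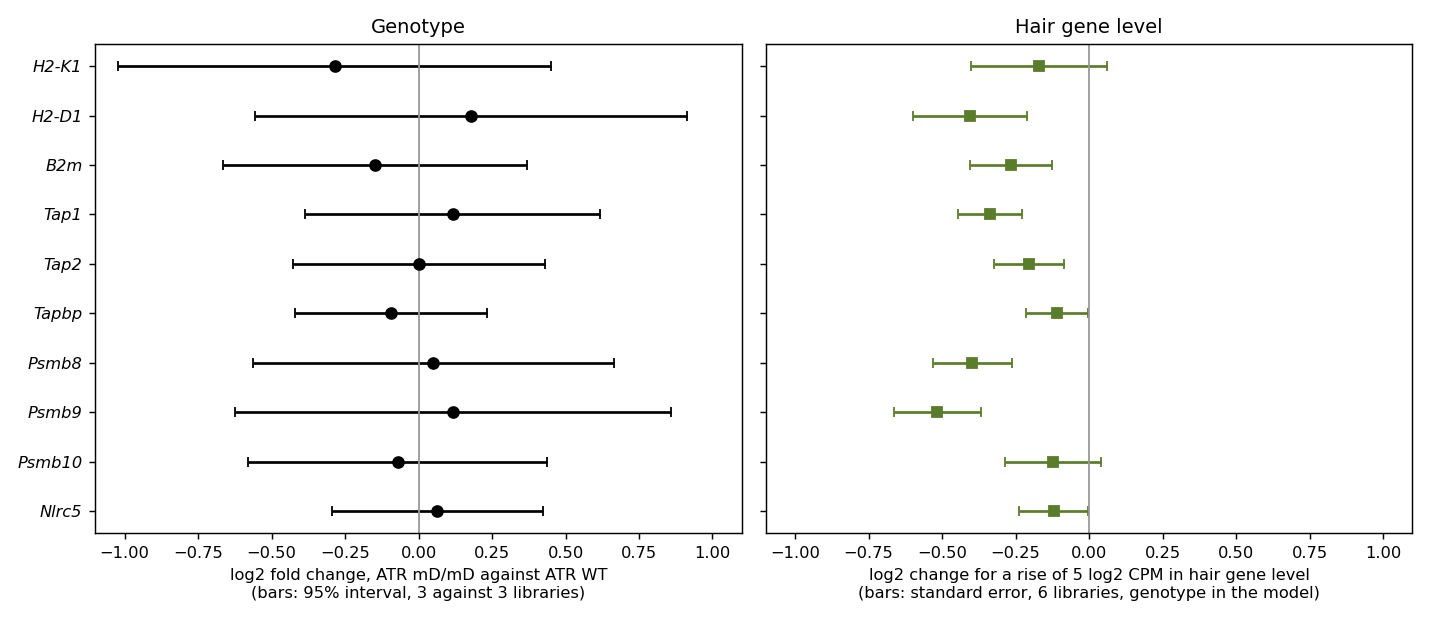
Left, log2 fold change of each member between genotypes with its 95% interval. Right, log2 change of each member for a rise of 5 log2 CPM in the hair gene level with its standard error, genotype being in the model. Every genotype interval spans 0, and the slopes all lie below 0, from -0.11 for Tapbp to -0.52 for Psmb9.

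Within libraries of like hair gene level, the genotype difference had no common direction. Above the gap there were 2 ATR WT libraries and 1 ATR mD/mD library, and 4 of 10 members were lower in ATR mD/mD. Below it there were 1 ATR WT library and 2 ATR mD/mD libraries, and 9 of 10 were lower. The direction matched on both sides for H2-K1 (-0.12 above and -0.59 below, differences of mean log2 CPM), B2m (-0.24 and -0.27) and Tapbp (-0.030 and -0.24). Psmb9 had 0.27 above and -0.35 below, and Psmb10 had 0.24 and -0.45. With 1 library of a genotype on each side, these differences have no test. With the hair gene level as a covariate, the genotype log2 fold change of 9 of 10 members was negative, their median was -0.10, and none passed.

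The summed T and NK cell markers were highest in the same 2 libraries as the class I members. The 12 measured T and NK cell markers of 18 listed summed to 112 CPM in WT1 and 116 CPM in mD1. They summed to 83.3, 80.2, 85.0 and 59.2 CPM in WT2, WT3, mD2 and mD3. The defining CD8 genes Cd8a and Cd8b1, Trac and Ncr1 were among those with no row in the table used here. The slope on the hair gene level was -0.90 for Cd3e (SE 0.148, adjusted p = 0.0194, edgeR), -0.55 for Cd3g (SE 0.111, adjusted p = 0.0321, edgeR) and -0.64 for Cd247 (SE 0.132, adjusted p = 0.0348, edgeR). These 3 subunits of the T cell receptor complex, of the 12 markers measured, were past the threshold, beside 3.86% of all genes called at a negative slope. Cd3e lost its call without WT2 (adjusted p = 0.0647) or mD3 (0.118, edgeR). Cd3g lost it with any 1 library left out (up to 0.125), and Cd247 with any 1 but mD2 left out (up to 0.153). With no genotype term, Cd3e (0.0725) and Cd247 (0.0678) lost it as well. Of the 12 markers, 10 had a negative slope, and Cd4 (0.22, SE 0.201) and Cd5 (0.11, SE 0.277) had a positive one. Cd4, the coreceptor of helper T cells, was at 6.15, 9.08 and 10.6 CPM in WT1 to WT3 and at 4.29, 3.96 and 4.06 CPM in mD1 to mD3. It was 1 of 2 genes among the 12 markers whose groups did not overlap, beside 4.84% of all genes. Its genotype log2 fold change was -1.07 (SE 0.253, unadjusted p = 0.00458, adjusted p = 0.9999, edgeR). Pan-leukocyte markers did not follow the same order, with 400 CPM in mD1 and 250.1 CPM in WT1, below the 307 CPM of both WT2 and WT3. The 8 endothelial markers summed to 442, 394 and 441 CPM in the 3 libraries of low hair gene level and to 311 to 335 CPM in the others. Epidermal keratinocyte markers split in the same way, at 25360, 20607 and 24069 CPM in WT1, mD1 and mD2 and 14921 to 17984 CPM in the others. Of these 10 markers, 7 had a negative slope on the hair gene level (median -0.37) and 3 a positive one. Only 1 was past the threshold, with a positive slope, beside 5.36% of all genes. The 8 fibroblast markers summed to 7492 CPM in mD1 and to 14248 to 18039 CPM in the other libraries. The 15 macrophage and dendritic cell markers summed to 3506 CPM in mD1, 2120 and 2216 CPM in mD3 and mD2, and 2851 to 3016 CPM in the ATR WT libraries. H2-Aa, a class II gene on that list, was itself at 222 and 263 CPM in mD2 and mD3 and at 442 to 543 CPM elsewhere. The part of these cell types in the class I levels was not tested. In whole skin, fewer cells of a type and less RNA per cell cannot be told apart.

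**Figure D3:**
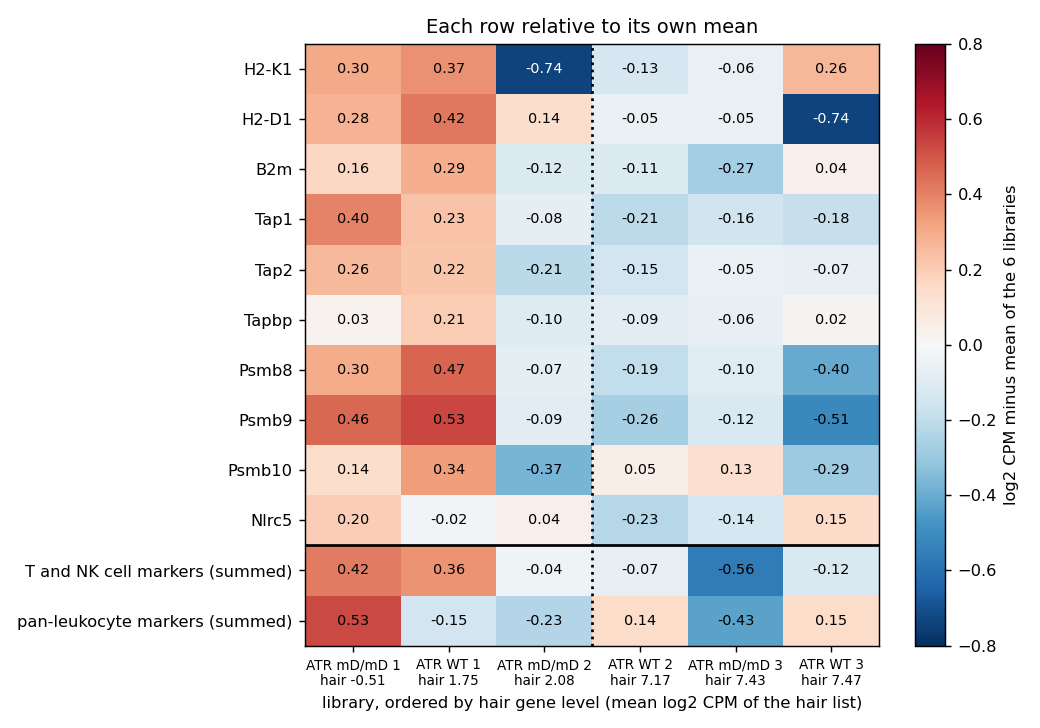
Log2 CPM of each member minus its mean over the 6 libraries, with the summed T and NK cell markers and pan-leukocyte markers in the lowest 2 rows. Columns are libraries ordered by hair gene level, with the level under each name and a dotted line at the widest gap. mD1 and WT1 are above the mean for nearly all members, and H2-K1 in mD2 and H2-D1 in WT3 are both 0.74 below it.

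The 3 highest correlations between members were within the cluster of Psmb9, Tap1, Psmb8 and Tap2 on chromosome 17, which lie in that order. Psmb8 and Psmb9 had a Pearson's r of 0.99 over the 6 libraries, Psmb9 and Tap1, whose starts are 226 bases apart, had 0.92, and Tap1 and Tap2 had 0.90. The adjacent pairs Tap1 and Psmb8 (0.88) and Psmb8 and Tap2 (0.81) came below H2-D1 and Psmb8 (0.89) and B2m and Tapbp (0.89), which lie farther apart or on different chromosomes. Of 45 pairs of members, 42 had a positive r, with a median of 0.65. H2-K1 and H2-D1, the 2 heavy chains, had -0.059, and Nlrc5 had r of 0.26 with the mean of the other members. Values of r over 6 libraries that also share depth and tissue makeup are a description. Psmb9 and Tap1 share 212 annotated exon bases (5.79% and 3.87% of theirs), and counts there cannot be assigned by strand. Exon bases shared with other genes made up 29.0% of Tapbp, 18.5% of Tap2 and 14.7% of Psmb8. The genes outside the lists whose pattern was most like the mean of the members were Slc4a8 (r = 0.98), Decr1 (0.98), Pqlc1 (0.98), Hook2 (0.96), Adtrp (0.96) and Unc50 (0.96). Of 10682 genes compared, 41 had r above 0.9.

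The ratio of the heavy chains singled out 2 libraries. H2-K1 over H2-D1, per exon base, was 1.45, 1.42, 1.52 and 1.49 in WT1, WT2, mD1 and mD3. It was 3.01 in WT3 and 0.816 in mD2. The raw counts were 79675 for H2-K1 and 23228 for H2-D1 in WT3, and 32068 and 34506 in mD2. Such a ratio is taken within a library, so scaling does not alter it. Its size depends on the exon lengths used (2938 and 2579 bases), and the comparison between libraries does not. The heavy chain genes share part of their sequence with other genes. Of the 50-base stretches in the longest coding transcript, 8.79% in H2-K1 and 14.3% in H2-D1 also occurred in transcripts of other genes. In the other members the share was 2.0% or less. The table lists reads aligned to more than 1 place in a row of their own, so part of the heavy chain reads may not be in these counts.

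The immunoproteasome subunits replace constitutive partners in the assembled particle: Psmb8 replaces Psmb5, Psmb9 replaces Psmb6, and Psmb10 replaces Psmb7. Per exon base, Psmb8 over Psmb5 was 0.428, 0.335 and 0.357 in WT1 to WT3 and 0.514, 0.477 and 0.242 in mD1 to mD3. Psmb9 over Psmb6 was 0.241, 0.170 and 0.179 against 0.294, 0.238 and 0.137. Psmb10 over Psmb7 was 0.558, 0.5503 and 0.484 against 0.594, 0.459 and 0.448. The size of these ratios depends on the exon lengths used, which were all annotated bases: 3381 for Psmb8 and 3660 for Psmb9. Their longest coding transcripts have 1628 and 1352 bases, so the ratios are read between libraries only. For Psmb8 and Psmb9 the 3 libraries of low hair gene level, mD2 included, had the 3 highest ratios, and for Psmb10 they did not. The groups overlapped in all 3 ratios. mD3 had the lowest ratios while holding the highest CPM of Psmb5 (124), Psmb6 (215) and Psmb7 (267).

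**Figure D4:**
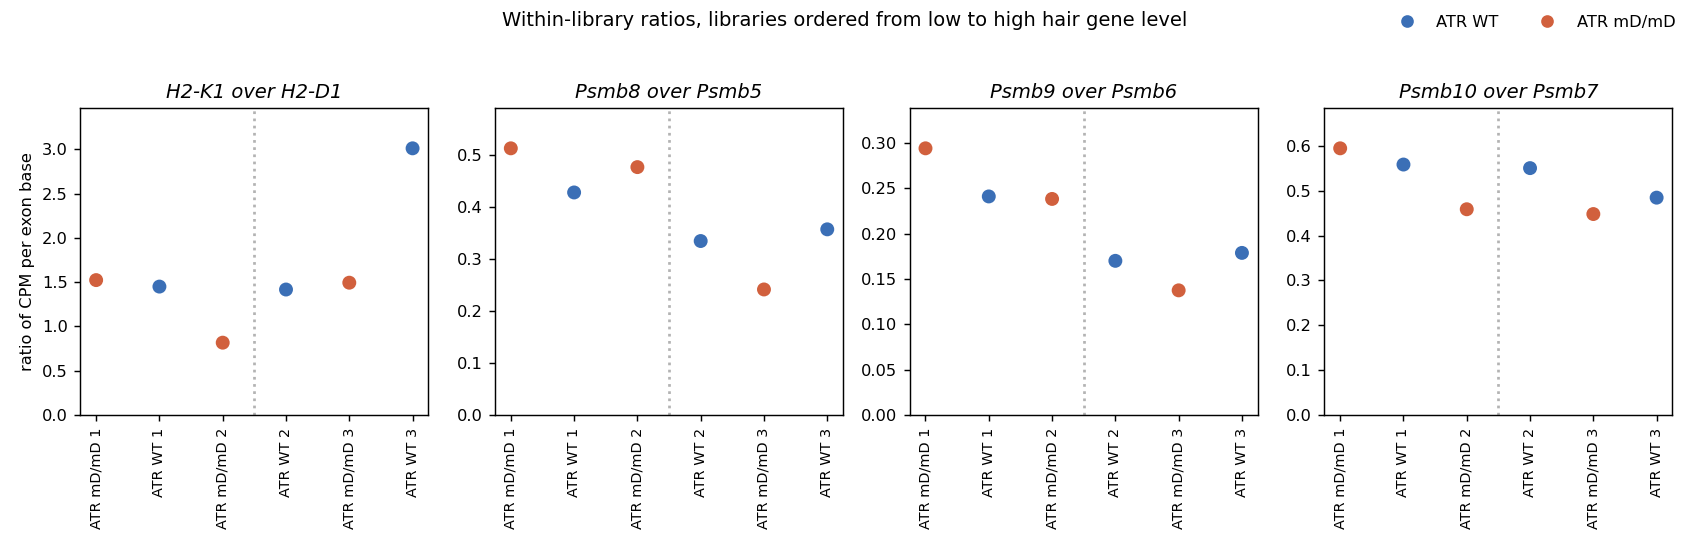
Ratios of CPM per exon base within each library (linear axes from 0), libraries ordered from low to high hair gene level, 1 point per library and no error bar. H2-K1 over H2-D1 is between 1.42 and 1.52 in 4 libraries, 3.01 in WT3 and 0.816 in mD2.

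No gene of the wider class I pathway passed the test between genotypes either. Of 20 other class I heavy chain and class I-like genes, 14 were measured, 6 lower and 8 higher in ATR mD/mD, and 0 passed (median log2 fold change 0.11). H2-T10, H2-M5 and H2-M2 had the smallest p-values, with log2 fold changes of 0.79 (SE 0.288, unadjusted p = 0.0305), 0.92 (SE 0.351, unadjusted p = 0.0359) and 0.45 (SE 0.255, unadjusted p = 0.122, edgeR). All 14 had a negative slope on the hair gene level, with a median of -0.37. Of these, H2-M3 alone was past the threshold (-0.68, SE 0.119, adjusted p = 0.0236, edgeR), beside 3.86% of all genes called at a negative slope. H2-M3 was at 22.6, 22.02 and 19.2 CPM in WT1, mD1 and mD2, and at 14.2, 14.9 and 9.90 CPM in WT2, WT3 and mD3. Its call was lost when WT1, WT2, mD1 or mD3 was left out (adjusted p 0.0602, 0.0872, 0.0528 and 0.131, edgeR), and with no genotype term (0.0561).

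Of 15 other peptide loading and trimming genes, 9 had a negative and 6 a positive log2 fold change, and 0 passed (median -0.041). The protease gene Ide had a log2 fold change of 0.40 (SE 0.163, unadjusted p = 0.0446, edgeR). It was the 1 gene of the 15 whose groups did not overlap, beside 4.84% of all genes. Lnpep and Pdia3 had -0.27 (SE 0.324) and -0.16 (SE 0.202). In contrast to the class I members, 11 of these 15 had a positive slope on the hair gene level, with a median of 0.20, none past the threshold. The 4 with a negative slope were Npepps (-0.31, SE 0.129), Tapbpl (-0.20, SE 0.112), Erap1 (-0.11, SE 0.170) and Ide (-0.085, SE 0.133). Of 19 constitutive proteasome subunits, activators and assembly factors, 5 were lower and 14 higher between genotypes (median 0.03), and 16 had a positive slope on the hair gene level (median 0.13). None of the 19 passed in either comparison. The 3 with a negative slope were Psme1 (-0.19, SE 0.146), Psme2 (-0.058, SE 0.153) and Psme4 (-0.012, SE 0.102). Psme3, an activator subunit and the 1 gene of the 19 whose groups did not overlap, had a log2 fold change of -0.23 (SE 0.121). Psma7 and Psmb2 had 0.16 (SE 0.285) and -0.11 (SE 0.208).

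The factors that bind class I promoters and the interferon pathway gave no call between genotypes. Of 13 promoter factor genes, 8 were lower and 5 higher (median -0.043), with Irf1 at -0.21 (SE 0.180), Nfyb at 0.11 (SE 0.109) and Creb1 at -0.10 (SE 0.144). None of the 13 passed in either comparison. The groups did not overlap in 1 of them, Nfyb, beside 4.84% of all genes. Of 12 measured interferon receptor and signalling genes, 6 were lower and 6 higher (median -0.004), and 0 passed. Ifng itself was the member of that list without a row in the table used here. Socs3, an inducible brake on cytokine signalling, was at 91.4, 69.5 and 53.6 CPM in WT1 to WT3 and at 37.0, 39.4 and 40.5 CPM in mD1 to mD3. It was the 1 gene of the 12 whose groups did not overlap, beside 4.84% of all genes. Its log2 fold change was -0.88 (SE 0.201, unadjusted p = 0.00389, adjusted p = 0.9999, edgeR). Socs1, another such brake, had -0.33 (SE 0.239). Ifngr2, a subunit of the interferon gamma receptor, fell with the hair gene level (slope -0.44, SE 0.101, adjusted p = 0.0452, edgeR). No other gene of the 12 was called on that slope, beside 3.86% of all genes called at a negative slope. The Ifngr2 call was lost with any 1 library left out, at an adjusted p of up to 0.210 without mD3, and with no genotype term (0.401, edgeR).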

How the data were processed

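The table the authors deposited holds raw counts (whole numbers, per the file headers and values) for each gene in the 6 libraries. Beside them stand the authors' log2 fold change and log2 mean level of their own comparison, with its p-value, raw and adjusted. FastQC, TopHat2 2.0.12, edgeR and the build mm10 are listed by the submitters' processing notes. Which tool and annotation counted the reads is not given in the sources used here. Per the labels' protocols, oligo dT beads enriched messenger RNA and the kit was TruSeq RNA v2. That kit does not mark the strand.

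The 2 rows that name no gene held 4.93% to 5.72% of listed counts and were left out, leaving 14484 genes. edgeR's filterByExpr removed none. Counts were scaled with TMM, and every gene was tested in edgeR 4.0.16 (R 4.3.3) by the quasi-likelihood test, with Benjamini-Hochberg adjustment over the whole table. SE is the absolute coefficient divided by the square root of the F statistic, and 95% intervals use the test's degrees of freedom. The hair gene level entered a second model as a number, beside genotype, and it was computed from the same libraries. Alternatives used DESeq2 1.42.0, limma 3.58.1, other covariates, a replicate block and single libraries left out. Scripts were tested on simulated data. Libraries of a group were not copies of each other: a chi-square test of each pair gave 55.3 or more per degree of freedom.

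The members and lists were chosen with earlier results of these data known. The named genes were all 10 members, and from each pathway list the genes past the threshold plus up to 3 with the smallest genotype p-value. A further gene that this rule names is not reported here. To these were added the 6 genes most like the mean of the members' standardized log2 CPM (no Gm or Rik symbol, mean of at least 3 log2 CPM). Psmb5, Psmb6, Psmb7, the T cell genes (Cd4 among them), the spaced motif pair and the genes of the closing observations were chosen after their values were seen. So were the genes named for a negative slope in the loading and proteasome lists.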

Additional observations from a re-analysis of the deposited data

How the results depend on the processing

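No member was called between genotypes under any of the 9 other settings or with any 1 library left out. Over all genes the number called was 39 with DESeq2, 25 with edgeR's exact test and 4 with the Y-linked level as a covariate, and 4 to 10 with 1 library left out (4 without WT2, WT3 or mD1). The members' median log2 fold change ran from -0.11 (without mD1) to 0.12 (without WT1), so its sign rests on single libraries. Genotype signs also turned with the hair gene level as a covariate, to -0.052 for Tap1, -0.095 for Tap2, -0.11 for Psmb8, -0.087 for Psmb9 and -0.0030 for Nlrc5. Tap2 was at -0.0045 with limma-voom. With 1 library left out, log2 fold changes ran from -0.54 to -0.049 for H2-K1, -0.27 to -0.017 for B2m, -0.088 to 0.50 for H2-D1, -0.077 to 0.29 for Tap1, -0.14 to 0.14 for Tap2, -0.16 to 0.0026 for Tapbp, -0.13 to 0.37 for Psmb8, -0.097 to 0.51 for Psmb9, -0.23 to 0.11 for Psmb10 and -0.029 to 0.15 for Nlrc5. The slope on the hair gene level ran from -0.49 to 0.083 for H2-K1 and from -0.49 to 0.033 for Psmb10. It ran from -0.86 to -0.34 for Psmb9, -0.70 to -0.23 for Psmb8, -0.66 to -0.23 for H2-D1, -0.46 to -0.27 for Tap1, -0.38 to -0.13 for Tap2, -0.32 to -0.24 for B2m, -0.22 to -0.053 for Tapbp and -0.21 to -0.029 for Nlrc5. It was past the threshold for 2 members with DESeq2 and for 0 to 1 with 1 library left out. Over all genes it was past the threshold for 1336 genes, for 2583 with DESeq2, and for 166 (without mD3) to 1175 with 1 library left out (482, 431 and 659 without WT1, WT2 and WT3). The cause was not tested. Whether the replicate numbers pair the libraries cannot be told from these values. Deviations from the group means correlated at 0.633, -0.509 and 0.573 for numbers 1, 2 and 3. They correlated at 0.701 for WT2 with mD3, both of high hair gene level, and at -0.718 for WT1 with mD3, of unlike level. With a replicate block, 6 genes and 0 members were called, and Tap2 was at -0.0025.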

Other observations

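The libraries that stood apart in the heavy chain ratio also stood apart in other genes of the H2 region of chromosome 17 (33974659 to 37483552, mm10), which were looked at after those ratios were seen. In mD2, H2-T23, the gene of the non-classical class I molecule Qa-1, was at 30.3 CPM, beside 215, 204 and 218 CPM in WT1, WT2 and WT3, 280.0 CPM in mD1 and 103 CPM in mD3. H2-Eb1, a class II beta chain gene, was at 9.32 CPM in mD2, beside 353, 278 and 459 CPM in WT1 to WT3 and 370.1 and 198 CPM in mD1 and mD3. H2-K2 was at 1.60 CPM in mD2, beside 6.58 to 10.05 CPM in the other libraries. All 3 were thus lowest in the library that was lowest for H2-K1, and next lowest in mD3.

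WT3, the library lowest for H2-D1, was lowest for other genes. H2-Q1 was at 0.368 CPM there, beside 2.32 to 4.90 CPM in the other libraries. H2-Ea-ps had 0 counts in WT3 and 2.46 to 8.91 CPM in the other libraries. For H2-Q1 and H2-Ea-ps the highest library was mD2. Of 120 measured genes in the region, 14 differed by at least 4-fold between the highest and lowest library with counts in every library, and H2-Ea-ps had none in WT3. The 15 genes are 12.5% of the region, beside 7.45% of all 14484 genes, and 5 of them are H2 genes, of 24 H2 genes measured there. Others had other orders: Ly6g6d was at 1.00 to 1.57 CPM in WT1, mD1 and mD2 and at 34.6 to 62.2 CPM in the libraries of high hair gene level, and Psors1c2 was at 8.76 to 14.6 CPM against 149 to 163 CPM. Tnf was at 14.5 CPM in WT2 and at 3.06 to 3.80 CPM elsewhere. Reads from stretches that H2 genes share cannot be fully separated, and the labels give a mixed C57BL/6-129J background. Their part in these values was not tested.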
